A study of Homo sapiens with 3 samples.

Results

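Cytochrome P450 genes, taken here as every gene whose symbol is CYP followed by a family number, a subfamily letter and a member number, with the cholesterol-synthesis gene CYP51A1 left out, were followed in 3 libraries of mRNA from cultured human hepatocellular carcinoma (HCC) cells. In all, 36 of the 16149 genes listed in any library met this rule. The 54 human genes that carry such symbols include 18 more that no library listed. The libraries came from HCCLM3, an HCC line, and from a pair of its subclones, with 1 library for each. The labels give the parent a low ability to metastasise, subclone1 a greater ability directed to the lung, and subclone2 one directed to the lung and to the celiac lymph node, whereas the methods of the study describe the parent, its derivative HCCLM3-R that carries a red fluorescent protein, as highly metastatic. All 3 were grown in DMEM with no treatment given in the labels. Each subclone stands for 1 clone grown out of a metastasis in a mouse, and which of the study's clones was sequenced is not given in the sources used here.

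P450 enzymes are haem proteins of the endoplasmic reticulum and the mitochondrion that insert an oxygen atom into their substrates, with electrons passed on by a reductase or a ferredoxin. Families 1 to 3 are known in the liver mainly for the clearance of drugs and other foreign compounds, family 4 for the hydroxylation of fatty acids and eicosanoids, and the remaining families for the synthesis and removal of bile acids, steroid hormones, vitamin D and retinoic acid. In hepatocytes many of the drug-metabolising members are controlled by nuclear receptors that sense foreign compounds and bile acids.

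Levels are RPKM as deposited, which scale reads by gene length and by the depth of the library. The low values stood in steps of whole reads, from which the depth came to 4488825 reads (parental cells), 4609696 (subclone1) and 4725150 (subclone2), and all 36 members could be given whole reads. With 1 library per cell line no difference was tested, and the 95% intervals given here (exact Poisson for a level, exact binomial for a ratio of levels) cover counting error only and compare libraries, not cell lines. A gene was counted as higher or lower where the ratio of RPKM plus a pseudocount of 0.1 was at least 2-fold, among the 11370 genes whose RPKM averaged at least 1. Both comparisons with the parent share the parental library. Where 3 values stand in a row, they are those of parental cells, subclone1 and subclone2 in that order. In bulk RNA, fewer cells that express a gene and less RNA per cell cannot be told apart.

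Of the 36 listed P450 genes, 27 were listed in parental cells, 31 in subclone1 and 27 in subclone2, and 20 were listed in all 3. Only 15 had a mean RPKM of at least 1, and a further 15 had no more than 3 reads in any library. The summed level was 274 RPKM in parental cells, 385 RPKM in subclone1 and 344 RPKM in subclone2. The vitamin D-degrading gene CYP24A1 alone made up 36.8%, 50.7% and 43.8% of these sums. The 6 highest genes of each library held 89.0%, 91.1% and 88.8% of them, so that P450 mRNA in these cells was largely that of a few genes.

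**Figure D1:**
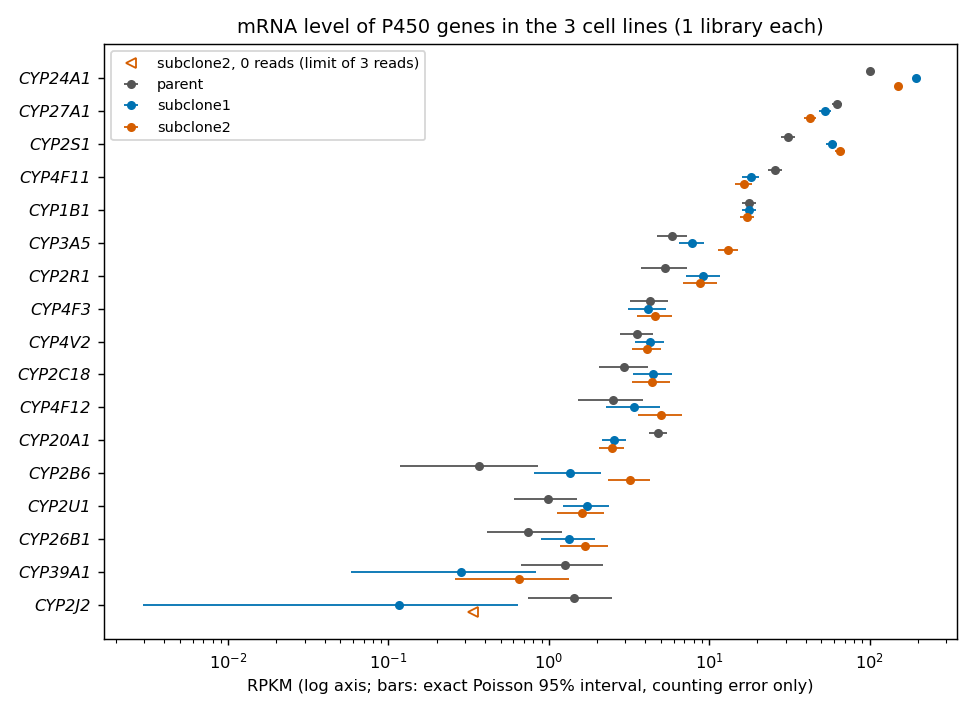
Levels of the P450 genes that averaged 1 RPKM or more, or reached it in any library, in parental cells, subclone1 and subclone2. Each point is the RPKM of 1 library on a log axis, each bar its exact Poisson 95% interval, and an open triangle the limit of 3 reads for a count of 0. CYP24A1 stands highest in all 3 libraries at 101, 195 and 151 RPKM. Of its own 3 levels, CYP2B6 has the lowest in parental cells and CYP2J2 the highest.

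In subclone1, 1 of the 15 P450 genes past the filter, CYP2B6, was at least 2-fold higher than in parental cells, where 4.9% of all genes were, and 0 were at least 2-fold lower, where 1.82% of all genes were. In subclone2, 4 of 15 were at least 2-fold higher than in parental cells (CYP2B6, CYP3A5, CYP2S1 and CYP26B1), against 5.33% of all genes, and 0 were lower, against 2.16%. Between the subclones, CYP2B6 alone was at least 2-fold higher in subclone2, against 1.42% of all genes, and 0 were lower, against 1.39%. CYP2B6, CYP26B1 and CYP2U1 had less than 1 RPKM in parental cells and passed the filter on low values only through the subclones, so that the filter fixed in part the direction of CYP2B6 and CYP26B1 in these counts. The median log2 ratio of the 15 genes was 0.43 for subclone1 over parental cells and 0.58 for subclone2 over parental cells, beside 0.00 and 0.04 over all genes. Between the subclones it was -0.04, beside 0.03 over all genes. The ratio over parental cells lay above 1 for 11 of the 15 genes in either subclone, beside 5732 (subclone1) and 6083 (subclone2) of all 11370 genes. CYP2B6, CYP26B1 and CYP2U1 are among the 11, so that the filter fixed this count and the medians over parental cells in part. CYP2J2 and CYP39A1, which exceeded 1 RPKM in parental cells alone, did not pass it.

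Short motifs were searched in the 250 bases before the start of each gene, as RefSeq gives them on GRCh38.p14, and the stretches of the 4 genes that were higher in subclone2 are shown so that their letters can be read beside their levels. Capitals mark matches on either strand. The motifs were the letters of the TATA box, spelled TATAAA, and of the GC box, spelled GGGCGG. The CCAAT box was searched by its name. The core of the response element of the aryl hydrocarbon receptor was spelled GCGTG. The core sites of nuclear receptors were spelled AGGTCA and, as a common variant of it, AGTTCA. No marked match overlaps another.
CYP2B6: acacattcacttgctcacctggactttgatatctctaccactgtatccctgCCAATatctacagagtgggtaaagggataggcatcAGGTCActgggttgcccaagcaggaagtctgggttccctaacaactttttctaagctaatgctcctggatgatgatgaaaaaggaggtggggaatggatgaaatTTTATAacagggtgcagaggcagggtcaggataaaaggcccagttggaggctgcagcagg
CYP3A5: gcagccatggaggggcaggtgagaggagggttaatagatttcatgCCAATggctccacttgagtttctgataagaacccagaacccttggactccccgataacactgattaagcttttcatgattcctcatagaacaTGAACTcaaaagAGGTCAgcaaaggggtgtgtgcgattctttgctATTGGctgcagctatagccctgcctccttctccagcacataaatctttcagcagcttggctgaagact
CYP2S1: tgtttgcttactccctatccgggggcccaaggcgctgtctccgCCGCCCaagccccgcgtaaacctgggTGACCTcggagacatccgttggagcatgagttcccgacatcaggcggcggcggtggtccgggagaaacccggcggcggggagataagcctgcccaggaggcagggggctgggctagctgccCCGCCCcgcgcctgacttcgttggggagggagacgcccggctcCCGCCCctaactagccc
CYP26B1: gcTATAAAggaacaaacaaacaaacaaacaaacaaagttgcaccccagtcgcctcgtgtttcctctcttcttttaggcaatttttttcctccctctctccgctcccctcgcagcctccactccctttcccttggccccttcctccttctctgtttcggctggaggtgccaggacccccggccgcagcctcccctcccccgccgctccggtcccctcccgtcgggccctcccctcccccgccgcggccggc

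The stretch of CYP2B6 (plus strand, chr19:40991032-40991281) held 1 AGGTCA site, 1 CCAAT box and 1 match to TATAAA, the last on the minus strand and 60 to 55 bases before the start, and had 0 CpG dinucleotides. That of CYP3A5 (minus strand, chr7:99679997-99680246) held 2 CCAAT boxes and 1 core site of each spelling. CYP2S1 (plus strand, chr19:41192969-41193218) held 3 GC boxes and 1 AGGTCA site. CYP26B1 (minus strand, chr2:72147863-72148112) held 1 match to TATAAA alone, 248 to 243 bases before the start. Of the 35116 promoters in the table, 12.1% held the AGGTCA site, 8.80% its variant, 32.0% a CCAAT box, 10.7% the letters of the TATA box, 42.6% a GC box and 32.2% the core of the aryl hydrocarbon receptor. Among the 11 members past the filter on low values that have a promoter in the table, 6 held a GC box, 6 a CCAAT box, 4 the AGGTCA site (CYP2B6, CYP3A5, CYP2S1 and CYP4V2), 2 its variant, 2 the letters of the TATA box and 1 the core of the aryl hydrocarbon receptor. These counts are per gene, some of which have several promoters, whereas the shares are per promoter. A match describes letters and does not show that a factor binds there. CYP24A1, CYP1B1, CYP2C18 and CYP4F12 have none in the table.

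Among the genes of drug and foreign-compound metabolism, 13 of 19 were listed and 5 passed the filter. Their summed level was 59.1 RPKM in parental cells, 90.6 RPKM in subclone1 and 104 RPKM in subclone2, or 1.53-fold and 1.77-fold the parental sum, and most of it came from CYP2S1 and CYP1B1.

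CYP2B6, which oxidises drugs such as bupropion and cyclophosphamide, had 0.365 RPKM in parental cells (5 reads), 1.35 RPKM in subclone1 (19 reads) and 3.19 RPKM in subclone2 (46 reads). The library of subclone2 was the highest and that of the parent the lowest, and the interval of each ratio lay above 1. The level in subclone1 was 3.70-fold that in parental cells (1.34 to 12.7), and in subclone2 it was 8.74-fold that in parental cells (3.49 to 28.2) and 2.36-fold that in subclone1 (1.36 to 4.27). The ratios over parental cells rest on 5 parental reads. The neighbouring pseudogene listed as CYP2B7P1, which is no member by its symbol, had 1 read in parental cells, 7 in subclone1 and 58 in subclone2 (0.0743, 0.506 and 4.09 RPKM). The GENCODE transcript of CYP2B6 closest to the length behind its RPKM was cut into 50-base windows. Of these, 10.1% also occurred in another gene, almost all of them in CYP2B7P. How reads shared by such copies were counted is not given in the sources used here, so that the split of the reads between this gene and its pseudogene is uncertain.

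CYP3A5, of the subfamily that handles the widest range of drugs in the liver, had 5.89 RPKM in parental cells (88 reads), 7.82 RPKM in subclone1 (120 reads) and 13.2 RPKM in subclone2 (207 reads). It was 2.23-fold higher in subclone2 than in parental cells (1.73 to 2.90) and 1.68-fold higher than in subclone1 (1.34 to 2.13). CYP3A4, the main CYP3A gene of the adult liver, was listed in no library, and 3 reads would have given it 0.271 to 0.285 RPKM. CYP3A7 and CYP3A43 were likewise not listed. CYP3A4 shared 2.20% of the 50-base windows of CYP3A5.

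CYP2S1, an extrahepatic member known from epithelia, had 31.2 RPKM in parental cells (372 reads), 58.0 RPKM in subclone1 (710 reads) and 65.7 RPKM in subclone2 (825 reads). Both subclones stood above the parent, by 1.86-fold (1.64 to 2.11) and 2.11-fold (1.86 to 2.39), at percentiles 93.9 and 95.2 of the 11370 genes. The subclones were closer to each other, with a ratio of 1.13 (1.02 to 1.25). None of the 50-base windows of CYP2S1 occurred in another gene.

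CYP1B1, which activates polycyclic aromatic compounds and hydroxylates oestrogens, was level across the libraries, with 17.7 RPKM in parental cells, 17.8 RPKM in subclone1 and 17.3 RPKM in subclone2 (411, 423 and 421 reads). The ratio over parental cells was 1.00 in subclone1 (0.873 to 1.15) and 0.973 in subclone2 (0.847 to 1.12). The other members of family 1, also targets of the aryl hydrocarbon receptor, were near 0: CYP1A1 had 1, 1 and 3 reads, and CYP1A2 had 3, 1 and 0 reads. CYP2C18 had 2.96 RPKM in parental cells, 4.49 RPKM in subclone1 and 4.38 RPKM in subclone2, and the intervals of its ratios over parental cells, 1.52 (0.969 to 2.41) and 1.48 (0.945 to 2.35), included 1. An overlapping transcript, AL583836.1, shared 37.2% of its windows.

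The other genes of this class, among them the main drug-metabolising enzymes of the adult liver, were barely seen. CYP2C8, CYP2C19, CYP2D6, CYP2E1 and CYP2F1 had at most 2 reads in any library and at most 0.295 RPKM. CYP2A6, CYP2A7 and CYP2A13 were not listed. At this depth a count of 0 allows up to 0.151 to 0.384 RPKM for the 18 genes not listed, depending on the length of the gene and the library.

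**Figure D2:**
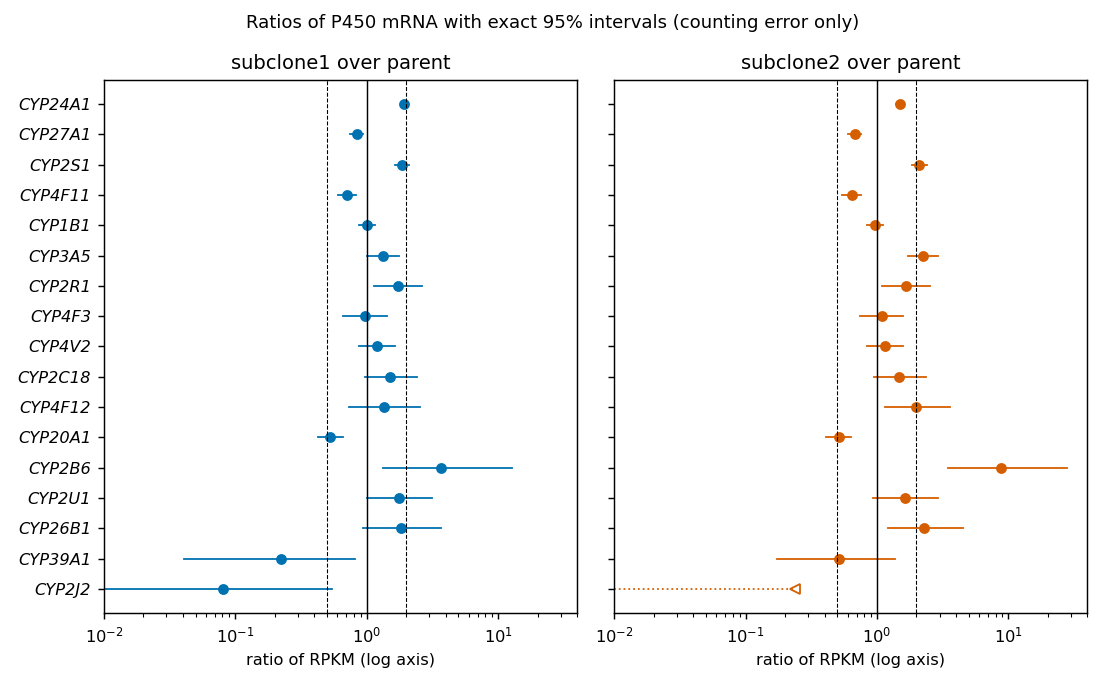
Ratios of RPKM in subclone1 (left) and subclone2 (right) over parental cells for the same P450 genes, on log axes, with exact 95% intervals for counting error, dashed lines at 2-fold and an open triangle for the bound of CYP2J2. CYP2B6 lies furthest to the right for subclone2 over parental cells at 8.74-fold, and CYP20A1 lies at 0.530 and 0.513.

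The genes of fatty acid and eicosanoid metabolism had summed levels of 38.5 RPKM in parental cells, 31.8 RPKM in subclone1 and 31.7 RPKM in subclone2, with 7 of 12 listed and 5 passing the filter. CYP4F11, an omega-hydroxylase of fatty acids and vitamin K, was the highest of them at 25.7 RPKM in parental cells (391 reads), 18.1 RPKM in subclone1 (284 reads) and 16.5 RPKM in subclone2 (264 reads). Both subclones were below the parent, with ratios of 0.707 (0.605 to 0.826) and 0.641 (0.547 to 0.752), which is less than a 2-fold difference. Its relatives on chromosome 19 were not lower in the subclones beyond counting error. CYP4F3, which inactivates leukotriene B, was level at 4.25, 4.14 and 4.60 RPKM. CYP4F12 had 2.50 RPKM in parental cells, 3.41 RPKM in subclone1 and 4.99 RPKM in subclone2 (20, 28 and 42 reads), and its ratio of 1.99 in subclone2 over parental cells (1.15 to 3.59) was just under the 2-fold limit with a log2 ratio of 0.97. CYP4F2, which was not listed, shared 13.8% of the windows of CYP4F3, and CYP4F24P shared 5.01% of those of CYP4F12.

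CYP4V2, a fatty acid hydroxylase of the eye and other tissues, had 3.55, 4.28 and 4.09 RPKM, and its ratios over parental cells had intervals that included 1. CYP2U1, which hydroxylates long-chain fatty acids, had 0.983 RPKM in parental cells, 1.73 RPKM in subclone1 and 1.60 RPKM in subclone2 (21, 38 and 36 reads), with ratios over parental cells of 1.76 in subclone1 (1.01 to 3.16) and 1.63 in subclone2 (0.925 to 2.94), of which the second interval included 1. CYP2J2, an epoxygenase of arachidonic acid, went the other way: it had 1.43 RPKM in parental cells (12 reads), 0.116 RPKM in subclone1 (1 read) and was listed at 0 in subclone2. Against the 3 reads that a count of 0 allows, the parental level was at least 4.21-fold higher than that of subclone2. This bound leaves out the counting error of the 12 parental reads, and with it the interval of the ratio of subclone2 over parental cells reached up to 0.342. In subclone1 the ratio over parental cells was 0.0811 (0.00190 to 0.548). The mean of CYP2J2 was below 1 RPKM, so that it entered no count of genes. CYP4A11, a fatty acid omega-hydroxylase of the liver, had 2 reads in parental cells and none in the subclones, and CYP4A22, CYP4B1, CYP4F8 and CYP4F22 were not listed.

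Vitamin D is activated by CYP2R1 and CYP27B1 and degraded by CYP24A1. CYP24A1 had 101 RPKM in parental cells (95.8 to 106, 1488 reads), 195 RPKM in subclone1 (188 to 202, 2959 reads) and 151 RPKM in subclone2 (145 to 157, 2342 reads). The 3 intervals did not overlap, with subclone1 the highest. The ratio over parental cells was 1.94 in subclone1 (1.82 to 2.06) and 1.5 in subclone2 (1.40 to 1.60), and that of subclone2 over subclone1 was 0.772 (0.731 to 0.815), so that no difference reached 2-fold. CYP2R1 had 5.32 RPKM in parental cells, 9.17 RPKM in subclone1 and 8.81 RPKM in subclone2 (39, 69 and 68 reads), or 1.72-fold (1.15 to 2.62) and 1.66-fold (1.10 to 2.52) the parental level. CYP27B1, which makes the active hormone, had 7, 4 and 4 reads (0.623, 0.347 and 0.338 RPKM), and VDR, the receptor of that hormone, had 1.76, 1.59 and 2.59 RPKM.

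In bile acid and oxysterol metabolism the level came almost wholly from CYP27A1, the mitochondrial sterol hydroxylase that opens the alternative route of bile acid synthesis. It had 62.9 RPKM in parental cells (674 reads), 52.8 RPKM in subclone1 (581 reads) and 42.5 RPKM in subclone2 (480 reads). The levels stood in the order parent, subclone1, subclone2, with ratios over parental cells of 0.839 (0.750 to 0.939) and 0.677 (0.601 to 0.762) and of subclone2 over subclone1 of 0.806 (0.713 to 0.911). CYP7A1, the rate-limiting enzyme of the classical route, had 1 read in subclone2 and none elsewhere, CYP7B1 was not listed, and CYP8B1, which sets the amount of cholic acid, had 1, 6 and 2 reads. CYP39A1, an oxysterol hydroxylase, had 1.27 RPKM in parental cells, 0.284 RPKM in subclone1 and 0.647 RPKM in subclone2 (13, 3 and 7 reads), with a ratio in subclone1 over parental cells of 0.225 (0.0411 to 0.818) and a mean below 1 RPKM. CYP46A1 had 1 read in subclone2.

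CYP26B1, which degrades retinoic acid, had 0.737 RPKM in parental cells (15 reads), 1.34 RPKM in subclone1 (28 reads) and 1.68 RPKM in subclone2 (36 reads). The ratio over parental cells was 2.28 in subclone2 (1.22 to 4.48) and 1.82 in subclone1, where the interval of 0.938 to 3.66 included 1. CYP26A1, its relative, had 1 read in subclone1 alone, CYP27C1 had 0, 3 and 1 reads and CYP26C1 was not listed. Of the 7 genes known to respond to retinoic acid outside the family, all 7 passed the filter. RARRES3 alone was at least 2-fold higher in either subclone, at 9.15, 21.2 and 25.5 RPKM, beside 4.9% and 5.33% of all genes. The ratio over parental cells lay above 1 for 6 of the 7 in either subclone, beside 5732 and 6083 of all 11370 genes. Their median log2 ratio was 0.44 in subclone1 and 0.55 in subclone2, beside 0.00 and 0.04 over all genes.

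Steroid hormone synthesis had little P450 mRNA in any library. CYP19A1, the aromatase, had 2, 3 and 5 reads (0.0983, 0.144 and 0.234 RPKM), CYP17A1 had 1 read in subclone1, and CYP11A1, CYP11B1, CYP11B2 and CYP21A2 were not listed.

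CYP20A1, a member with no settled substrate, showed the lowest ratios of the 15 genes in both subclones. It had 4.82 RPKM in parental cells (237 reads), 2.56 RPKM in subclone1 (129 reads) and 2.48 RPKM in subclone2 (128 reads). The ratio over parental cells was 0.530 (0.424 to 0.660) and 0.513 (0.411 to 0.639), at percentiles 2.66 and 2.56, and fell just short of 2-fold lower. The length behind its RPKM, worked out as 10943 bases, was longer than its GENCODE transcripts. CYP2W1, known from tumours of the colon, had 0, 3 and 4 reads, and CYP4X1 had 1 read in subclone2, while CYP4Z1 was not listed.

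**Figure D3:**
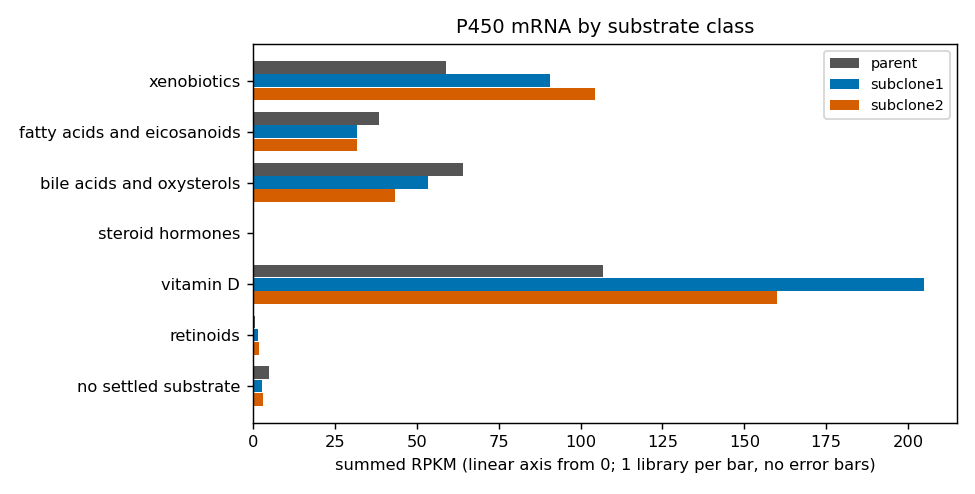
Summed RPKM of the P450 genes by the substrate class of their enzymes, on a linear axis from 0, with 1 bar per library and no error bars. The vitamin D class reaches 107, 205 and 160 RPKM through CYP24A1, the xenobiotic class is lowest in parental cells at 59.1 RPKM, and the bile acid and oxysterol class is at 64.2 RPKM in the parent and 43.5 RPKM in subclone2.

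The order of the genes by level could not be resolved beyond counting error in much of its lower part. CYP24A1 was the highest in every library, and its interval against the next gene lay above 1. In the parent CYP27A1, CYP2S1, CYP4F11 and CYP1B1 followed in that order, each above the next beyond counting error. In subclone1 CYP2S1 and CYP27A1 did not differ beyond it, with a ratio of 1.10 (0.983 to 1.23), whereas in subclone2 CYP2S1 exceeded CYP27A1 by 1.54-fold (1.38 to 1.73). CYP4F11 and CYP1B1 did not differ beyond it in either subclone. Of the 14 neighbouring pairs among the 15 genes, 8 in parental cells, 9 in subclone1 and 7 in subclone2 had an interval that included 1.

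The genes that a P450 enzyme depends on were present in all libraries. POR, the reductase of the microsomal enzymes, had 71.6 RPKM in parental cells, 88.5 RPKM in subclone1 and 89.3 RPKM in subclone2, with a ratio over parental cells of 1.24 (1.13 to 1.36) and 1.25 (1.14 to 1.37). CYB5A, cytochrome b5, which aids some of them, had 21.7, 64.5 and 61.7 RPKM. It was the single gene of the 10 electron donors and haem-binding partners at least 2-fold higher, beside 4.9% and 5.33% of all genes. The ratio over parental cells was 2.98 in subclone1 (2.32 to 3.85) and 2.85 in subclone2 (2.22 to 3.69). The mitochondrial pair did not stand apart beyond counting error: FDX1, the ferredoxin, had 8.47, 8.18 and 8.44 RPKM, and FDXR, its reductase, had 1.5, 2.80 and 2.51 RPKM with intervals that included 1. None of the 12 genes of haem synthesis and breakdown was 2-fold higher or lower in any comparison. Of all genes, 4.9% were higher and 1.82% lower in subclone1 than in parental cells, and 5.33% and 2.16% in subclone2. For subclone2 over subclone1 these shares were 1.42% and 1.39%.

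**Figure D4:**
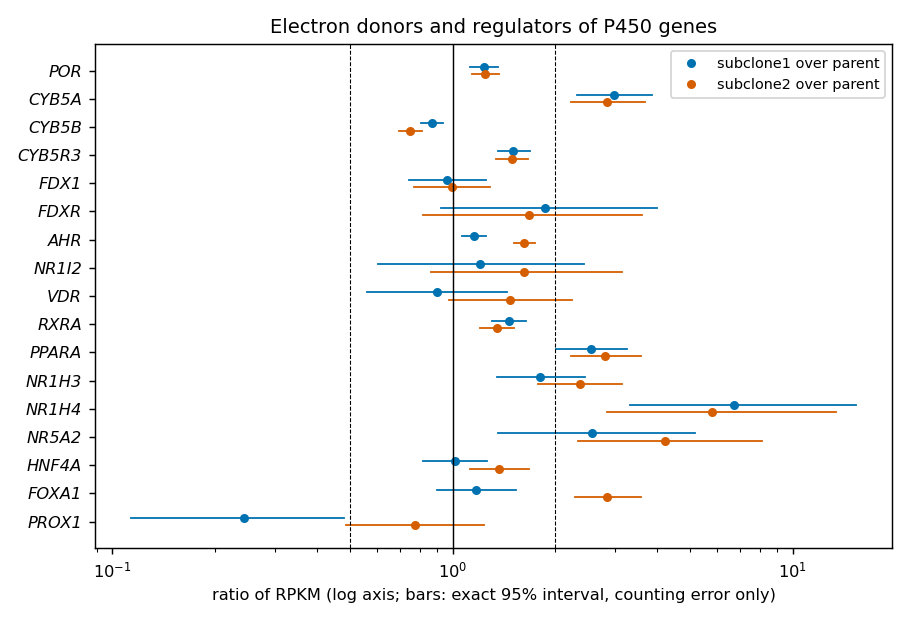
Ratios of RPKM over parental cells, on a log axis with exact 95% intervals for counting error, for electron donors (top) and regulators of P450 genes (below), with dashed lines at 2-fold. CYB5A, PPARA, NR1H3, NR1H4, NR5A2, FOXA1 and PROX1 pass a 2-fold line in at least 1 subclone, while POR, FDX1 and HNF4A lie between the lines.

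Among the regulators tied to the sensing of foreign compounds and lipids, most of them receptors, 16 of 19 passed the filter. Of these, 3 were at least 2-fold higher in subclone1 and 4 in subclone2 than in parental cells, beside 4.9% and 5.33% of all genes. In both comparisons 0 were lower, beside 1.82% and 2.16%. NR1H4, the bile acid receptor, had 1.61 RPKM in parental cells, 10.8 RPKM in subclone1 and 9.34 RPKM in subclone2. PPARA, the fatty acid receptor, had 2.15, 5.48 and 6.04 RPKM. NR5A2, which acts on bile acid genes, had 0.617, 1.59 and 2.60 RPKM. It passed the filter only through the subclones, so that the filter fixed its direction in these counts in part. NR1H3, the oxysterol receptor, had 9.33, 16.9 and 22.0 RPKM and reached 2-fold in subclone2 alone. The receptors best known for inducing drug metabolism did not reach 2-fold. NR1I2, the pregnane X receptor, had 0.852, 1.02 and 1.38 RPKM, with ratios over parental cells whose intervals included 1. NR1I3, the constitutive androstane receptor that acts on CYP2B6, and NR0B2 were listed in no library. AHR had 41.3, 47.7 and 67.1 RPKM, and was 1.63-fold higher in subclone2 than in parental cells (1.51 to 1.75). Of the 6 AHR-responsive genes outside the family, 5 passed the filter. UGT1A6 alone was at least 2-fold higher in either subclone, at 4.91, 11.0 and 12.7 RPKM, beside 4.9% and 5.33% of all genes. It encodes a conjugating enzyme and shares exons with the other UGT1A genes. The ratio over parental cells lay above 1 for 2 of the 5 in subclone1 and 3 in subclone2. Their median log2 ratio was -0.24 and 0.14.

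Of the 10 liver-enriched regulators, 7 passed the filter. Over parental cells, 0 were at least 2-fold higher and 1 lower in subclone1, beside 4.9% and 1.82% of all genes. In subclone2 1 was higher and 0 lower, beside 5.33% and 2.16%. Between the subclones 2 were higher in subclone2 and 0 lower, beside 1.42% and 1.39%. HNF4A had 11.7, 11.9 and 16.0 RPKM. FOXA1, which opens liver chromatin, had 7.63, 8.96 and 21.7 RPKM and was 2.85-fold higher in subclone2 than in parental cells (2.28 to 3.58). PROX1, which represses CYP7A1, had 3.17, 0.773 and 2.47 RPKM, with a ratio of 0.243 in subclone1 over parental cells (0.113 to 0.479). In subclone2 FOXA1 was 2.43-fold (1.97 to 3.00) and PROX1 3.19-fold (1.59 to 6.95) the level in subclone1. PROX1 had less than 1 RPKM in subclone1 and passed the filter only through the other libraries, so that the filter fixed its direction in part. The P450 enzymes of prostanoid synthesis, whose symbols fall outside the rule, had 4.61, 28.3 and 14.6 RPKM for PTGIS and 15.1, 16.1 and 22.3 RPKM for TBXAS1. CYP51A1 had 52.8, 34.8 and 33.9 RPKM.

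Markers of hepatocytes and of other cell types also differed between the libraries. Of 9 hepatocyte markers 8 were listed, and their summed level was 12.9 RPKM in parental cells, 101 RPKM in subclone1 and 89.7 RPKM in subclone2. Of the 5 past the filter, 4 were at least 2-fold higher in subclone1 and 3 in subclone2 than in parental cells, beside 4.9% and 5.33% of all genes. ALB had 2.46, 49.5 and 68.8 RPKM and APOB had 0.300, 1.23 and 4.17 RPKM. APOB passed the filter only through the subclones, so that the filter fixed its direction in these counts in part. TF, at 5.71, 30.3 and 5.88 RPKM, was higher in subclone1 alone, and FGB, at 1.66, 14.5 and 5.60 RPKM, was lower in subclone2 than in subclone1. AFP had 2.41, 4.16 and 4.27 RPKM, while APOA2 was not listed and TTR, SERPINA1 and APOA1 had at most 4 reads in any library. Fibroblast markers summed to 15.7, 31.1 and 24.3 RPKM, mostly from LUM at 10.1, 24.0 and 21.0 RPKM, while COL3A1 went the other way at 4.42, 2.21 and 0.463 RPKM and COL1A2 had 1 read or none. Endothelial markers summed to 3.38, 9.89 and 4.49 RPKM, mostly from PECAM1 at 3.33, 9.81 and 4.46 RPKM, with VWF and CDH5 at no more than 2 reads. PECAM1 alone passed the filter, and it was at least 2-fold higher than in parental cells in subclone1 only. Of the leukocyte markers, CD68 had 75.3, 112 and 99.6 RPKM, PTPRC had 2, 0 and 0 reads and CD3E was not listed. The part of these differences in the P450 levels was not tested.

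The CpG content of the 250 bases upstream was set beside the level of the P450 genes. CYP24A1, CYP1B1, CYP2C18 and CYP4F12, each with a mean RPKM of at least 1, have no promoter in the table and are left out. Over the 38 members with a promoter in the table, the median ratio of observed to expected CpG, taken per gene as the median of its promoters, was 0.760 for the 11 with a mean RPKM of at least 1, 0.421 for the 13 with a lower mean and 0.154 for the 14 listed in no library, beside 0.546 over 27305 genes. A ratio of at least 0.6, the usual mark of a CpG island, was reached by 6 of 11, 3 of 13 and 2 of 14, beside 46.4% of all genes. The share in the first set, 54.5%, was thus near that of all genes, and those of the other sets, 23.1% and 14.3%, were lower. CYP4V2 had the highest ratio of the first set at 0.921. The lowest ratios of this set were those of CYP2B6 at 0, CYP3A5 at 0.141, CYP4F3 at 0.125 and CYP4F11, with 0.224 and 0 at its pair of promoters. No test was made, because neighbouring P450 genes share ancestry and the split follows the level.

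**Figure D5:**
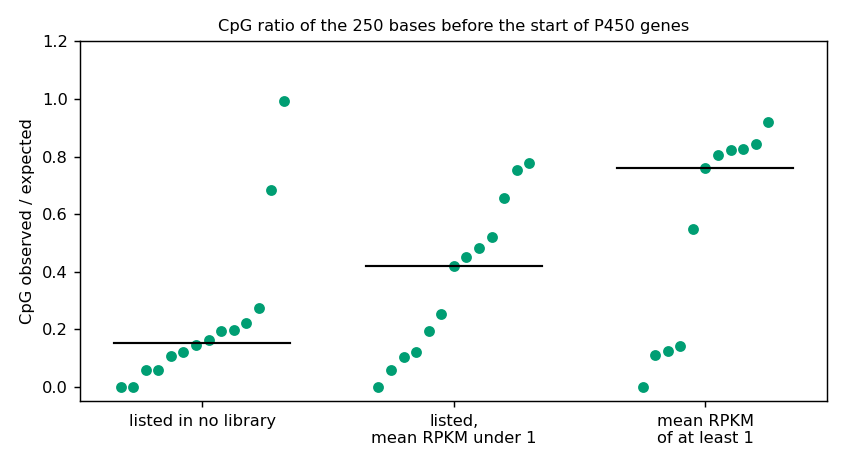
Ratio of observed to expected CpG dinucleotides in the 250 bases before the start of P450 genes, with 1 point per gene ordered by value within each set and a line at the median of the set. The medians are 0.154, 0.421 and 0.760 from the genes not listed to those with a mean RPKM of at least 1, and the points of the sets overlap.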

How the data were processed

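mRNA of cultured cells was sequenced on 3 libraries, the parental line and a pair of subclones, grouped by the titles of the samples. The authors deposited RPKM values for genes with at least 1 read. The submitters' processing notes name hg19. Aligner, counting tool, annotation, use of strand and treatment of shared reads are not given in the sources used here. Genes absent from a file were given 0.

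Library totals and whole reads were worked out from the steps of the RPKM, for 98.9% of the 11370 genes averaging at least 1 RPKM. Gene lengths so obtained came within 10% of a GENCODE transcript for 33 of 36 members. The exceptions were CYP1A2, CYP20A1 and CYP4V2. Over all genes given whole reads the share was 82.8%. Short lengths, and those further off for genes listed in 1 library, were multiplied to come near a transcript where possible. This closeness was thus fixed in part. Ratios were log2 of (RPKM + 0.1), counted at 2-fold. Intervals were exact Poisson and Clopper-Pearson at 95% and cover counting error only, since reads without molecular identifiers are not independent molecules. A count of 0 was taken to allow 3 reads. The counting was tested on simulated data.

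The members and gene lists were chosen with earlier results of these data known. Every member with a mean RPKM of at least 1, or at least 1 in any library, was named with its values, and the others in groups, except 1 gene that is not reported here. From the companion lists, the genes at least 2-fold different in any comparison were named, with POR, CYB5A, FDX1, FDXR, AHR, NR1I2, NR1I3, HNF4A, NR1H4 and NR0B2 whatever their values. VDR, TBXAS1, CYP51A1, CYP2B7P1 and the cell type markers were named outside this rule.

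Promoters came from RefSeq on GRCh38.p14 (38 of 54 members, 51 promoters), and shared 50-base windows from GENCODE transcripts. Promoter coordinates are on that build, not on the build of the RPKM. Alternatives were pseudocounts of 0.01 and 1, 3 rescalings, a filter at a mean of 5 RPKM or none at all, and 1.5-fold. Python 3.11.15, numpy 2.4.6, pandas 2.3.3, scipy 1.17.1 and matplotlib 3.10.9 were used.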

Additional observations from a re-analysis of the deposited data

How the results depend on the processing

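Of 15 P450 genes, 1 was at least 2-fold higher and 0 lower in subclone1 than in parental cells, 4 and 0 in subclone2 than in parental cells, and 1 and 0 in subclone2 than in subclone1. With no filter on low RPKM the counts were 7 higher and 4 lower (beside 9.43% and 5.47% of all genes), 7 higher and 7 lower (9.62% and 5.83%), and between the subclones 6 lower (5.59%), since members with a mean below 1 RPKM were then counted. With a mean RPKM of at least 5 there were 0, 2 and 0 higher (2.84%, 3.08% and 0.524%), since CYP2B6 and CYP26B1 were no longer counted. With a pseudocount of 1, 0 were higher in subclone1 than in parental cells and 0 in subclone2 than in subclone1 (3.05% and 0.704%), since CYP2B6 fell below 2-fold. At 1.5-fold 7 were higher and 1 lower (11.6% and 7.46%), 7 higher and 2 lower (12.7% and 7.30%), and between the subclones 2 higher (4.75%). The other 33 values of these counts, all rescalings included, stayed within 1.5 times. Of 255 log2 ratios of single members under the alternatives, 253 stayed within their counting interval. Those that moved were CYP2B6 in subclone2 over parental cells, at 1.62, and CYP2J2 in subclone2 over parental cells, at -1.28, both with a pseudocount of 1. No member past 2-fold reversed, and the 42 class sums under rescaling moved less than counting error. No paired analysis was possible because there is 1 library for each group. Leaving out a library removes the comparisons that use it and leaves the other as it is, so no value was recomputed this way.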
